A study of Schizosaccharomyces pombe with 6 samples.

Results

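Intergenic long non-coding RNAs (lncRNAs) of the fission yeast Schizosaccharomyces pombe were compared between a strain deleted for duf89 and a wild-type strain. The features were every entry of the count table with a systematic identifier beginning SPNCRNA and a deposited product description of intergenic RNA that did not mention antisense. This gave 429 of the 6986 features. The descriptions of 108 of the 429 add that the transcript may be an alternative UTR of a neighbouring gene, and the other 321 carry no such remark. Both strains were grown to log phase at 30 ºC in YES, a rich yeast extract medium. The wild type was strain JS 77, for which no mating type is given, and the mutant was strain AS2300, genotype h- duf89delta::hygR, a deletion of duf89 marked by hygromycin resistance. Each strain has 3 libraries of polyadenylated RNA made with a stranded kit, and the wild-type libraries were already deposited with another series, though the design text says that they were sequenced at the same time. Nothing ties a library to 1 of the 2 instruments named, so that preparation, instrument and strain background cannot be told apart from the deletion. RNAs without a poly(A) tail were not captured by this assay.

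An intergenic lncRNA in fission yeast is transcribed by RNA polymerase II, capped and polyadenylated like an mRNA, and usually kept scarce by the nuclear exosome, the complex that degrades nuclear transcripts from their 3′ ends. Its act of transcription can matter more than its product: transcription that runs from a lncRNA promoter across the promoter of the next gene in the same direction can silence that gene, as is known for the phosphate-responsive genes pho1, pho84 and tgp1. Where such a lncRNA terminates early, the downstream promoter is freed. The title of the series places Duf89, a metal-dependent phosphatase, in this setting, as an antagonist of early lncRNA termination.

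The 6 libraries held between 18244492 and 21572536 counts each. Replicates of a strain differed by more than sampling noise, so that none was the same library counted again. Whether each came from a separate culture cannot be told from this. The duf89 gene itself had counts of 808, 897 and 794 in the wild type and of 229, 234 and 373 in the deletion, a fall of 1.74 on the log2 scale (SE 0.16, adjusted p = 6.6e-05). The labelled direction therefore held, although reads remained on the gene in every deletion library. Levels are given in CPM, the standard measure of a feature's counts relative to the scaled total of its library. The 6 M mating-type markers summed to 265 to 286 CPM in the wild type and to 227 to 343 in the deletion, and none of the 5 tested was called. The 4 P mating-type markers summed to 42.3 to 43.9 and 37.3 to 42.1 CPM, with mat1-Pc not found in the table and 1 of 3 tested called lower. The 6 meiosis markers summed to 71.0 to 75.7 and 84.4 to 91.8 CPM, with 2 of 4 tested higher and none lower. Most of these sums was mes1, at 61.4 ± 2.07 and 68.5 ± 3.4 CPM, which was not called (adjusted p = 0.057). The genes called were rec10, at 8.7 and 12.6 CPM, and spn5, at 2.35 and 6.1 CPM. The part of these marker lists in the lncRNA results was not tested. In bulk RNA, fewer cells that make a transcript and less of it per cell cannot be told apart.

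The intergenic lncRNAs were scarce in both strains. The median lncRNA had a mean of 51.2 counts over the 6 libraries, 216 reached a mean of 50 and 4 a mean of 1000, while 14 had no count in any library. Together they took 0.262% ± 0.00875 of all counts in the wild type and 0.239% ± 0.0101 in the deletion (SD, n = 3 each). Without SPNCRNA.863, the shares were 0.244% ± 0.00598 and 0.233% ± 0.00852. Per kilobase of the annotated RNA, the median intergenic lncRNA lay at 2.52 to 2.78 CPM across the 6 libraries. Antisense lncRNAs lay at 2.29 to 3.35 CPM per kilobase and protein-coding genes at 36.0 to 39.9, and 2 of the intergenic lncRNAs exceeded the protein-coding median.

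In the RefSeq annotation 417 of the 429 were matched by identifier. Their lengths ran from 219 to 5123 bases with a median of 953, and their median GC content of 33.6% was below the 36.8% of protein-coding genes and the 36.6% of antisense lncRNAs. Intergenic was not always literal in that annotation: 195 of the 417 overlapped a protein-coding gene, 138 on the opposite strand and 70 on the same strand, and 47 overlapped no annotated gene. SPNCRNA.1365, one of the 429, is named cti6-antisense-1 there, and SPNCRNA.1483 and SPNCRNA.1650 are typed as snoRNAs. Whether the counting used strand is not stated in the labels or files, so that reads of overlapping genes on opposite strands may not have been told apart, and reads in same-strand overlaps may have been assigned to neither gene.

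Between the strains, 347 of the 429 had enough counts to be tested, and lower levels in the deletion were more frequent than higher ones. A feature was called where the adjusted p of edgeR's quasi-likelihood test, with Benjamini-Hochberg adjustment over all 6045 features tested, was below 0.05. Of the 347, 29 rose and 73 fell, or 8.36% and 21.0%. Over all features tested, 28.8% rose and 24.6% fell, so that the share of lncRNAs that rose was small and the share that fell was near the background. In total 29.4% of the lncRNAs were called against 53.3% of all features. The 82 that were not tested had mean counts of at most 9.33.

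The median log2 fold change of the 347 was -0.11, beside 0.00 for all features tested, and 58.2% of the values were negative. The 3 libraries of one strain lay entirely above the 3 of the other for 44.4% of the lncRNAs and for 63.3% of all features. Among the 102 called lncRNAs, 100 were separated in this way, and 27.5% of the 102 changed by less than 1.5-fold. Scaling by total counts alone gave 38 higher and 56 lower, so that falls made up 59.6% of the calls in place of 71.6%, and it shifted the median of all features to 0.07. Without wild-type replicate 2, the number that rose was 17.

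Changes of 2-fold or more were mostly falls with TMM scaling. At that size, 21 of the 347 lncRNAs fell and 3 rose, while 2.48% of all features tested fell and 0.562% rose. Without wild-type replicate 3, 7 rose at least 2-fold, and under cyclic loess scaling, which removes a trend with abundance, 11 rose and 15 fell at that size. Of the 24 lncRNAs with TMM scaling, 11 that fell and 1 that rose had a mean under 50 counts, and their fold changes rest on few reads. Below 50 counts, 11 of 131 lncRNAs fell at least 2-fold, beside 17 of 129 protein-coding genes. From 50 to under 100 counts the numbers were 4 of 78 and 4 of 82. From 100 to under 300 counts they were 4 of 103 and 4 of 302, and at 300 or more 2 of 35 and 17 of 4444. Among antisense lncRNAs, 64 of 596 fell at least 2-fold and 3 rose. Of all features other than the intergenic lncRNAs, 62 of 386 fell at least 2-fold below 50 counts. From 50 to under 100 counts 26 of 255 did so, and from 100 to under 300 counts 16 of 490. At 300 or more, the number was 25 of 4567. These differences were not tested.

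**Figure D1:**
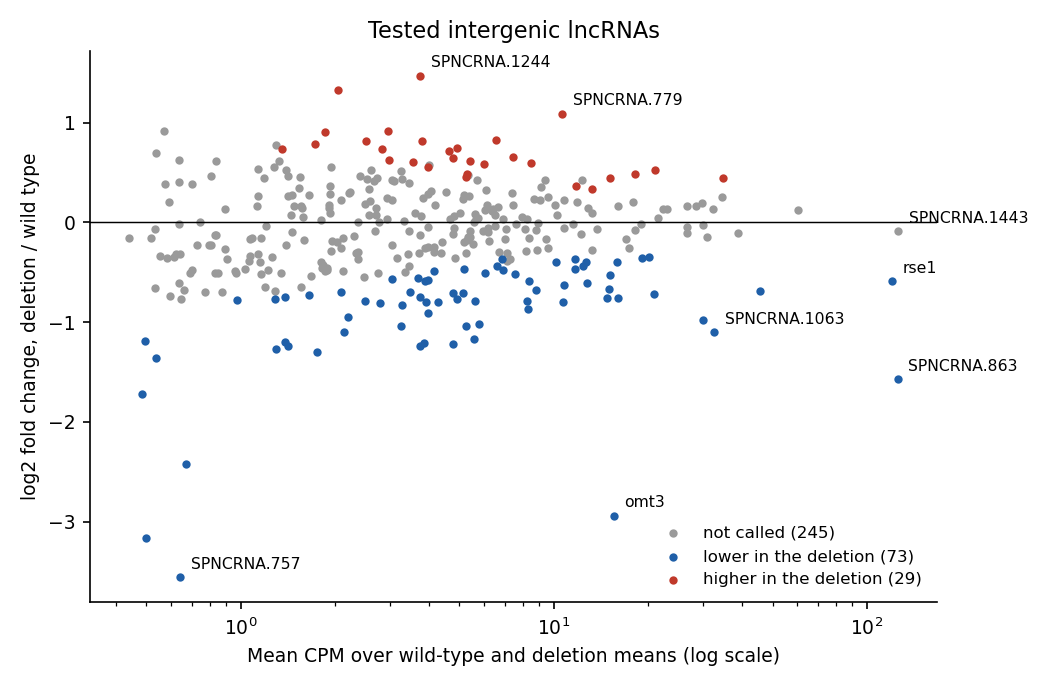
Log2 fold change (deletion over wild type, vertical axis) against mean CPM on a log axis for the 347 tested intergenic lncRNAs. Red points are the 29 that rose, blue points the 73 that fell and grey points the 245 that were not called, and omt3 and SPNCRNA.863 lie below the other lncRNAs of similar or higher level.

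The scarcity of the lncRNAs bears on how many could be called, so they were set beside protein-coding genes of like count. Below a mean of 50 counts, 4 of 131 lncRNAs rose and 18 fell, beside 12 and 22 of 129 protein-coding genes. From 50 to under 100 counts, 11 of 78 rose and 18 fell, beside 12 and 15 of 82 protein-coding genes. From 100 to under 300 counts, 10 of 103 rose and 27 fell, whereas 117 of 302 protein-coding genes rose and 29 fell. At 300 or more, 4 of 35 rose and 10 fell, beside 1505 and 1118 of 4444. A smaller share of lncRNAs than of genes rose below 50 counts and from 100 counts up, and from 100 to under 300 counts a larger share of lncRNAs fell, at 26.2% against 9.6%. Among all features other than the intergenic lncRNAs, 16 of 386 rose and 85 fell below 50 counts. From 50 to under 100 counts 19 of 255 rose and 70 fell, and from 100 to under 300 counts 144 of 490 and 87. At 300 or more, 1531 of 4567 rose and 1171 fell. Below 50 counts 22.0% of these features fell against 13.7% of the lncRNAs, and from 50 to under 100 counts 27.5% against 23.1%. These differences were not tested. Over all protein-coding genes tested, 33.2% rose and 23.9% fell.

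**Figure D2:**
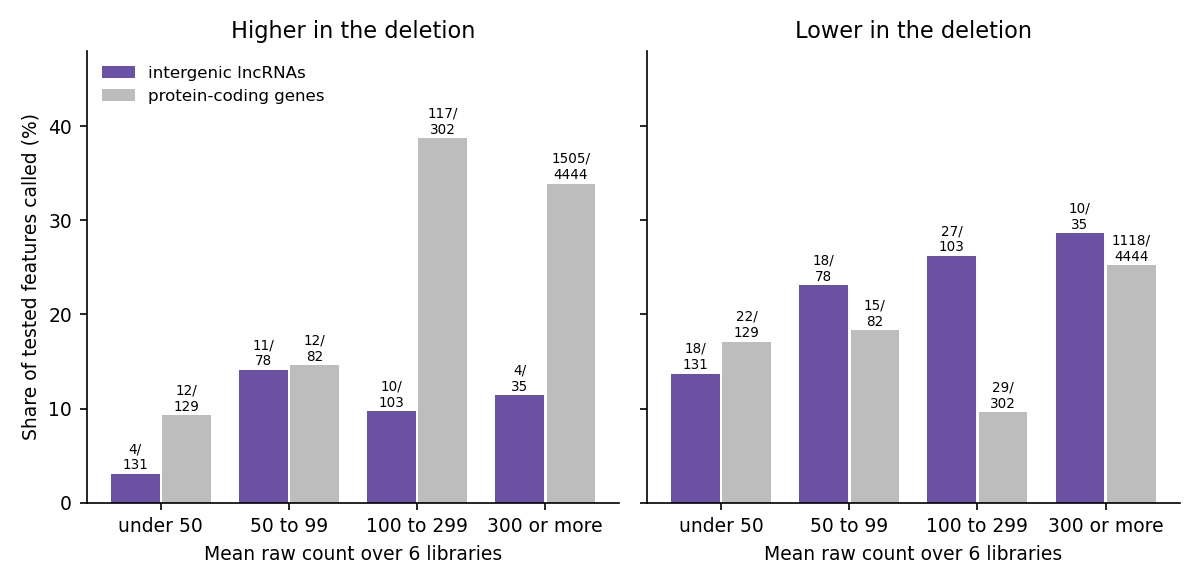
Share of tested features called higher (left) and lower (right) in the deletion, in percent, for 4 ranges of mean raw count over the 6 libraries, with the number called over the number tested above each bar. Intergenic lncRNAs (purple) and protein-coding genes (grey) part most in the left panel at 100 counts and above, where 10 of 103 lncRNAs and 117 of 302 genes rose.

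The kinds of lncRNA within the set did not separate clearly. Of the possible alternative UTRs, 6 of 95 tested rose and 18 fell, with a median log2 fold change of -0.16, and of the others 23 of 252 rose and 55 fell, with a median of -0.09. Among those that overlap an opposite-strand protein-coding gene, 10 of 118 rose and 27 fell. Among those that overlap a same-strand protein-coding gene, 3 of 59 rose and 13 fell. Those that overlap no protein-coding gene had 17 of 177 higher and 36 lower, and those that overlap no annotated gene had 2 of 31 higher and 7 lower. For comparison, 54 of 596 antisense lncRNAs rose and 191 fell, with a median of -0.26. The difference between these kinds was not tested.

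The lncRNA omt3 (SPNCRNA.130, chromosome I) changed most among those of substantial count. It had 545, 523 and 482 counts in the wild type and 89, 68 and 70 in the deletion. All 3 deletion libraries lay far below all 3 wild-type libraries. Its mean level fell from 27.5 ± 2.38 to 3.59 ± 0.447 CPM (SD, n = 3), a fall of 2.94 on the log2 scale (SE 0.13, adjusted p = 5.2e-07) or 7.65-fold. In the authors' deposited table its log2 fold change is -2.96. No 50-base stretch of omt3 recurs elsewhere in the RefSeq genome, so its reads were not open to sharing with a copy of that kind.

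The locus around omt3 changed in both directions. On one side, transcribed away from it, is mei2, which encodes the RNA-binding protein that drives entry into meiosis. The mei2 counts were 1730, 1972 and 1719 in the wild type and 1418, 860 and 909 in the deletion, and the groups did not overlap. Its level fell from 96.1 ± 5.30 to 50.2 ± 13.1 CPM (-0.93 on the log2 scale, SE 0.15, adjusted p = 0.00099). On the other side and on the strand of omt3 is omt2, a predicted tetrahydrobiopterin dehydratase gene, which rose from 14.6 ± 1.17 to 21.4 ± 1.51 CPM (0.55 on the log2 scale, SE 0.10, adjusted p = 0.002). SPNCRNA.993, a scarce lncRNA between omt3 and mei2, had 30, 34 and 40 counts in the wild type against 23, 12 and 13, and fell by 1.27 on the log2 scale (SE 0.29, adjusted p = 0.0056).

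SPNCRNA.863 on chromosome I was among the most abundant lncRNAs and fell by 1.57 on the log2 scale (SE 0.18, adjusted p = 0.00019). Its counts were 2685, 3824 and 4129 in the wild type and 1038, 1291 and 1663 in the deletion. These groups did not overlap, but each varied more than that of omt3. This result is uncertain, because 54.8% of the 50-base stretches of SPNCRNA.863 recur elsewhere in the RefSeq genome and the counting may have split its reads among copies. SPNCRNA.862, which overlaps it on the opposite strand, was at 33.5, 29.2 and 31.7 CPM in the wild type and at 40.9, 33.0 and 38.3 in the deletion, and was not called (adjusted p = 0.051).

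SPNCRNA.1063, a possible alternative UTR on chromosome I, fell with little spread between replicates. It measured 44.2, 45 and 44.4 CPM in the wild type and 21.3, 20.1 and 20.8 in the deletion, and fell by 1.10 on the log2 scale (SE 0.07, adjusted p = 6.0e-06). SPNCRNA.1064, which lies within the SPNCRNA.1063 span on the opposite strand in RefSeq, was also called lower, at -1.36 on the log2 scale. Reads of these lncRNAs may not have been told apart. The protein-coding gene directly downstream of SPNCRNA.1063 on its strand, adg1, stood at 609 ± 18.3 and 612 ± 9.47 CPM and was not called (0.01 on the log2 scale, SE 0.04, adjusted p = 0.91).

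SPNCRNA.1296 on chromosome III behaved much like SPNCRNA.1063, at 39.9, 42.3 and 37.6 CPM in the wild type and 20.6, 19.7 and 20.4 in the deletion (-0.98 on the log2 scale, SE 0.08, adjusted p = 2.3e-05). Its downstream gene SPCC569.06, of a multicopy membrane protein family, was not called either, at -0.04 on the log2 scale (SE 0.05, adjusted p = 0.50).

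The other lncRNAs among the 15 largest falls with a mean of at least 50 counts and separated groups were scarcer. SPNCRNA.1666, which lies between the amino acid biosynthesis genes met6 and ilv5 and overlaps no annotated gene, measured 4.59, 6.18 and 4.97 CPM in the wild type and 2.17, 2.11 and 2.37 in the deletion, a log2 fold change of -1.24. SPNCRNA.1034 had 6.58, 6.85 and 6.67 CPM against 3.04, 2.60 and 2.94, a log2 fold change of -1.22. SPNCRNA.1265 measured 7.14, 7.31 and 8.62 CPM against 3.41, 3.87 and 2.99, a log2 fold change of -1.17. In each of these the deletion libraries lay at less than the lowest wild-type value, and the adjusted p-values ran from 0.00037 to 0.00082. In RefSeq, SPNCRNA.1034 overlaps bgs3 on the opposite strand, which fell from 391 ± 14.0 to 337 ± 27.8 CPM (adjusted p = 0.015). SPNCRNA.1265 likewise overlaps sgf73 and mrpl17, which rose by 0.50 and 0.37. SPNCRNA.1666 lies 38 bases from met6 and 13 bases from ilv5, which stood at 523 and 2150 CPM in the wild type. Of these, met6 fell by 0.13 (adjusted p = 0.034) and ilv5 was not called. Reads of these genes and the lncRNAs may not have been told apart.

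SPNCRNA.1313 measured 6.14, 6.18 and 3.86 CPM in the wild type and 2.58, 1.91 and 2.47 in the deletion, a fall of 1.21 (SE 0.23, adjusted p = 0.0024). It lies divergently beside mug14, an adducin gene, which fell from 3.22 ± 0.464 to 1.67 ± 0.422 CPM (-0.95 on the log2 scale, SE 0.24, adjusted p = 0.0086). The log2 fold changes of the remaining 7 of the 15 were -1.04 for SPNCRNA.834, -1.04 for SPNCRNA.1496, -1.02 for SPNCRNA.1360, -0.91 for SPNCRNA.679, -0.87 for SPNCRNA.316, -0.83 for SPNCRNA.1650 and -0.81 for SPNCRNA.1607. SPNCRNA.1360 overlaps arg12, an argininosuccinate synthase gene, on the opposite strand in RefSeq. The arg12 mRNA fell from 814 ± 50.9 to 414 ± 15.2 CPM (-0.98 on the log2 scale, SE 0.05, adjusted p = 2.3e-06), and reads of both may not have been told apart. Part of the SPNCRNA.1650 span is a snoRNA gene on its strand in RefSeq.

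SPNCRNA.1607 on chromosome II lies in a stretch where neighbours differed in direction. Its level was 3.93, 3.66 and 3.07 CPM in the wild type and 2.17, 1.96 and 1.95 in the deletion. It overlaps SPBPB7E8.02, a PSP1 family gene on the opposite strand, which also fell (-0.70 on the log2 scale, SE 0.08, adjusted p = 0.00015). The next gene, SPBPB7E8.01, which encodes a predicted GPI-anchored protein, rose from 456 ± 54.2 to 833 ± 121 CPM (0.87 on the log2 scale, SE 0.11, adjusted p = 0.00037). SPNCRNA.1606, antisense to SPBPB7E8.01 in RefSeq, measured 24.7, 26.8 and 36.2 CPM against 34.3, 36.3 and 49.6. Its groups overlapped, and its call at a log2 fold change of 0.45 (adjusted p = 0.044) was lost under cyclic loess scaling, at 0.20 (adjusted p = 0.24), with offsets corrected for GC content, and without deletion replicate 3, wild-type replicate 1 or wild-type replicate 2.

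The rises were fewer and smaller. SPNCRNA.1244 on chromosome III had 26, 38 and 48 counts in the wild type and 102, 108 and 138 in the deletion, with separated groups. Its level rose from 1.98 ± 0.551 to 5.52 ± 0.944 CPM, or 1.47 on the log2 scale (SE 0.23, adjusted p = 0.0011). The neighbouring SPNCRNA.1243, transcribed towards it, measured 3.54, 3.86 and 3.54 CPM in the wild type and 5.35, 5.44 and 7.64 in the deletion, and rose by 0.75 (SE 0.19, adjusted p = 0.0083). In RefSeq, SPNCRNA.1244 overlaps SPCC74.04, a predicted amino acid permease gene, on the opposite strand. That gene stood at 43.2 ± 2.0 and 44.7 ± 4.87 CPM and was not called (adjusted p = 0.65). Reads of SPNCRNA.1244 and SPCC74.04 may not have been told apart.

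SPNCRNA.779 on chromosome I had 96, 140 and 150 counts in the wild type and 304, 270 and 345 in the deletion. Scaled for library size, the lowest deletion library, at 13.2 CPM, lay above the highest wild-type library, at 7.94, and the mean rose from 6.82 ± 1.36 to 14.5 ± 1.64 CPM, or 1.09 on the log2 scale (SE 0.16, adjusted p = 0.00068). It is the most abundant lncRNA in a cluster that runs from the phytochelatin synthetase gene pcs2 to hsr1, which encodes a transcription factor. SPNCRNA.780, which overlaps SPNCRNA.779 on the opposite strand, rose by 0.82 (SE 0.19, adjusted p = 0.0059). SPNCRNA.783 in the same cluster, which overlaps hsr1 on the opposite strand, rose by 0.60 (adjusted p = 0.027). SPNCRNA.784, whose span in RefSeq lies within that of SPNCRNA.783, fell by 0.80 (adjusted p = 0.024). The pcs2 mRNA rose by 0.39 (SE 0.08, adjusted p = 0.0029), and hsr1 had a log2 fold change of -0.00 (adjusted p = 0.97).

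Among the 10 largest rises with a mean of at least 50 counts, SPNCRNA.1169 measured 2.1, 1.75 and 2.27 CPM in the wild type and 3.92, 3.68 and 4.04 in the deletion (log2 fold change 0.92, adjusted p = 0.003). SPNCRNA.909 measured 5.20, 4.12 and 4.87 CPM against 7.93, 8.24 and 8.97 (log2 fold change 0.83, adjusted p = 0.0018). Both overlap protein-coding genes on the opposite strand. SPNCRNA.1146 rose by 0.82, SPNCRNA.1385 by 0.74, SPNCRNA.794 by 0.72 and SPNCRNA.1466 by 0.66. The call of SPNCRNA.1385 was lost without any single library other than deletion replicate 1, with adjusted p-values up to 0.11, and that of SPNCRNA.794 without deletion replicate 1, deletion replicate 3 or wild-type replicate 2, with adjusted p-values up to 0.078.

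**Figure D3:**
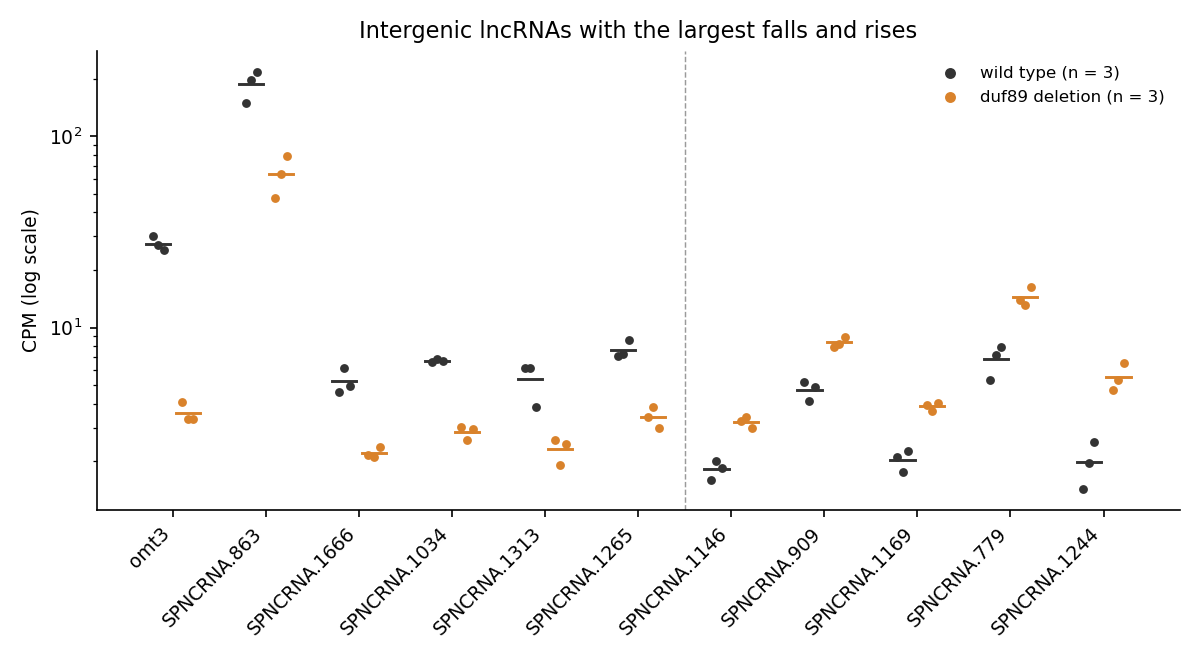
CPM in each library, on a log axis, for the 6 intergenic lncRNAs with the largest falls (left of the dashed line) and 5 with the largest rises (right) among called ones with a mean of at least 50 counts and separated groups, with points for libraries and bars for the mean of 3 wild-type (black) and 3 deletion (orange) libraries. The choice of these 11 required groups that do not overlap, and omt3 falls from 27.5 to 3.59 CPM on average.

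Of the 8 lncRNAs with the highest mean CPM, SPNCRNA.863, SPNCRNA.1625 and rse1 fell, SPNCRNA.1606 rose and the other 4 were not called. SPNCRNA.1443 measured 129, 130 and 130 CPM in the wild type and 129, 128 and 108 in the deletion and was not called (-0.09 on the log2 scale, SE 0.07, adjusted p = 0.29). SPNCRNA.1625 was at 56.3, 56.0 and 57.0 CPM in the wild type and at 36.9, 34.0 and 33.7 in the deletion, and fell by 0.69 (SE 0.07, adjusted p = 7.2e-05). Divergent from it is mbx2, a MADS-box transcription factor gene, which rose from 26.1 ± 2.74 to 50.7 ± 8.57 CPM (0.96 on the log2 scale, SE 0.13, adjusted p = 0.00047). SPNCRNA.1097 stood at 57.9 ± 0.696 and 63.1 ± 2.11 CPM and SPNCRNA.438 at 40.2 ± 2.22 and 37.2 ± 2.08, and neither was called (adjusted p = 0.099 and 0.24).

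A few of the lncRNAs carry gene names and known functions. The rse1 lncRNA (SPNCRNA.111, chromosome II) is known as a repressor in cis of its divergent neighbour ste11, which encodes the transcription factor that starts sexual differentiation. It had 2506, 3018 and 2653 counts in the wild type and 2453, 1938 and 1710 in the deletion. Scaled for library size the groups did not overlap, and rse1 fell from 145 ± 9.22 to 96.4 ± 16 CPM (-0.59 on the log2 scale, SE 0.10, adjusted p = 0.0018). The ste11 mRNA measured 76.7, 69.4 and 64.5 CPM in the wild type and 80.3, 60.2 and 62.8 in the deletion, and was not called (-0.05 on the log2 scale, SE 0.11, adjusted p = 0.72). The gene cyc3, for a cytochrome c heme lyase, overlaps rse1 on the opposite strand and rose from 37.7 ± 3.33 to 56.8 ± 3.25 CPM (0.59 on the log2 scale, SE 0.08, adjusted p = 0.00057). The nearest protein-coding gene downstream of rse1 without overlap is the4, an acyl-coenzyme A thioesterase gene on its strand, 3311 bases away. It rose from 125 ± 8.58 to 256 ± 28.3 CPM (1.03 on the log2 scale, SE 0.08, adjusted p = 2e-05).

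The lncRNA ncRNA.1343 (SPNCRNA.1343, chromosome II) lies beside tgp1, which encodes a glycerophosphodiester transporter and is silenced in phosphate-rich medium by transcription of the lncRNA nc-tgp1. In RefSeq, ncRNA.1343 overlaps nc-tgp1 on the opposite strand and is transcribed away from tgp1, and nc-tgp1 itself was not analysed here. Levels of ncRNA.1343 were 16.8, 18.8 and 19.6 CPM in the wild type and 13.3, 9.76 and 11.6 in the deletion, without overlap, a fall of 0.67 on the log2 scale (SE 0.13, adjusted p = 0.0024). Levels of tgp1 were 20.7, 22.3 and 27.4 CPM in the wild type and 176, 167 and 178 in the deletion, a rise of 2.89 (SE 0.09, adjusted p = 1.2e-07). On the other side, SPBC1271.08c fell from 66.5 ± 8.54 to 28.7 ± 1.95 CPM (-1.21 on the log2 scale, SE 0.10, adjusted p = 2.6e-05). A pair of genes on either side of the same lncRNA thus moved in opposite directions. The lncRNA fell, as did SPBC1271.08c, the nearest protein-coding gene downstream that does not overlap it.

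**Figure D4:**
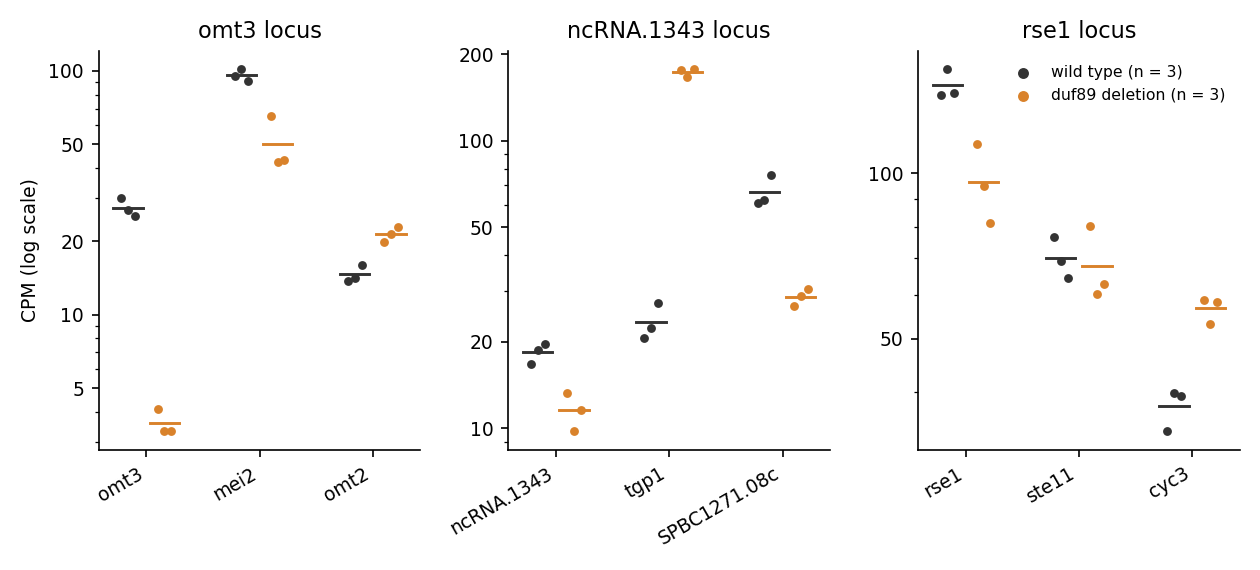
CPM in each library, on log axes that differ between panels, for omt3, ncRNA.1343 and rse1 and for a pair of protein-coding genes beside or overlapping each, with points for libraries and bars for the mean of 3. The lncRNA is lower in the deletion (orange) in every panel, while omt2, tgp1 and cyc3 are higher, mei2 and SPBC1271.08c are lower and the ste11 groups overlap.

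The lncRNA fbp1-ot3 (SPNCRNA.1325) is transcribed upstream of fbp1, the glucose-repressed fructose-1,6-bisphosphatase gene, and is known for its part in opening that promoter upon glucose starvation. In YES medium it measured 2.77, 2.99 and 2.70 CPM in the wild type and 3.00, 3.53 and 3.32 in the deletion, and was not called (log2 fold change 0.22, adjusted p = 0.31). The fbp1 mRNA was at 5.70 ± 0.467 and 6.99 ± 0.571 CPM and was not called (adjusted p = 0.11). Of the other named lncRNAs, cti6-antisense-1 (SPNCRNA.1365), prl38 (SPNCRNA.1493), prl9 (SPNCRNA.1519) and prl59 (SPNCRNA.59) had log2 fold changes of -0.40, -0.49, 0.39 and 0.05, and none was called, with adjusted p-values of 0.24, 0.092, 0.32 and 0.75. The named lncRNAs prl6, prl20, fbp1-ot2 and aal1 had too few counts to be tested.

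Because the series concerns lncRNAs that act on the next gene in tandem, each lncRNA was paired with a protein-coding gene if that gene was the next annotated gene downstream, on the same strand, without overlap and within 2000 bases. This held for 112 of the lncRNAs, 94 of them tested and 25 of those called. In 91 pairs both were tested, and in 24 of these the lncRNA was called. Of the 17 lncRNAs that fell, the downstream gene rose in 7, fell in 2 and was not called in 8. Of the 7 that rose, the downstream gene fell in 3, rose in 2 and was not called in 2. Opposite calls thus numbered 10 and like calls 4. Neither omt3 with omt2 nor ncRNA.1343 with SPBC1271.08c is among the 91 pairs, because these genes were not the next annotated gene downstream. In the 67 pairs whose lncRNA was not called, the downstream gene rose in 18, fell in 19 and was not called in 30. Of all protein-coding genes tested, 33.2% rose and 23.9% fell, so that most lncRNAs falling and more genes rising than falling bears on how many opposite calls there are, and no link within pairs was tested. Spearman's rho between both log2 fold changes was -0.16 over the 91 pairs, -0.30 over the 37 with a possible alternative UTR and -0.03 over the other 54. These points share the same 6 libraries, and neighbouring transcripts may share reads.

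The changes in these downstream genes were small. SPNCRNA.1496 measured 6.47, 7.0 and 7.72 CPM in the wild type and 3.50, 3.58 and 3.23 in the deletion, and SPBC14C8.11c, which encodes a protein known only in S. pombe, rose by 0.60 (SE 0.12, adjusted p = 0.0033). SPNCRNA.656 fell by 1.24 on 14 to 39 counts per library, and gim3, a prefoldin subunit gene, rose by 0.61 (SE 0.14, adjusted p = 0.0051). SPNCRNA.1571 measured 10.6, 10.1 and 10.5 CPM against 6.13, 6.47 and 5.41 (log2 fold change -0.79), and klp9, a mitotic kinesin gene, rose from 23.5 ± 1.75 to 32.3 ± 1.52 CPM (log2 fold change 0.46). SPNCRNA.1035, which did not have both a mean of at least 50 counts and separated groups, fell by 1.30. The malate transporter gene mae1 rose by 0.27.

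In the other direction, SPNCRNA.1466 measured 5.59, 5.46 and 6.19 CPM in the wild type and 8.90, 9.22 and 9.16 in the deletion, and any1, which encodes an arrestin-related adaptor, fell from 324 ± 9.73 to 240 ± 28.1 CPM (-0.43 on the log2 scale, SE 0.08, adjusted p = 0.0017). SPNCRNA.794 rose and the quinone reductase gene obr1 fell from 810 ± 61.3 to 588 ± 38.7 CPM (log2 fold change -0.46). SPNCRNA.1141 rose by 0.62 and erv29, for an adaptor of secretory vesicles, fell by 0.20.

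Pairs that changed alike included SPNCRNA.1361 with SPBC428.10, which rose by 0.59 and 0.49, and SPNCRNA.699 with lam3, a Ragulator subunit gene, which rose by 0.33 and 0.43. SPNCRNA.1483 with the ribosomal protein gene rpl8 fell by 0.80 and 0.25. The SPNCRNA.1483 span holds a snoRNA gene on its strand in RefSeq. SPNCRNA.1053 and SPNCRNA.1359 fell by 0.44 and 0.77, and hgh1 and nup107 downstream of them rose by 0.29 and 0.22. The calls of SPNCRNA.1053, SPNCRNA.1359, SPNCRNA.1361 and SPNCRNA.699 were each lost without at least 1 library. SPNCRNA.1053 lost its call without deletion replicate 1 or 2 and SPNCRNA.1359 without deletion replicate 3 or wild-type replicate 2. SPNCRNA.1361 lost its call without deletion replicate 3 and SPNCRNA.699 without deletion replicate 2 or wild-type replicate 2, and also with offsets corrected for GC content or under cyclic loess scaling.

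**Figure D5:**
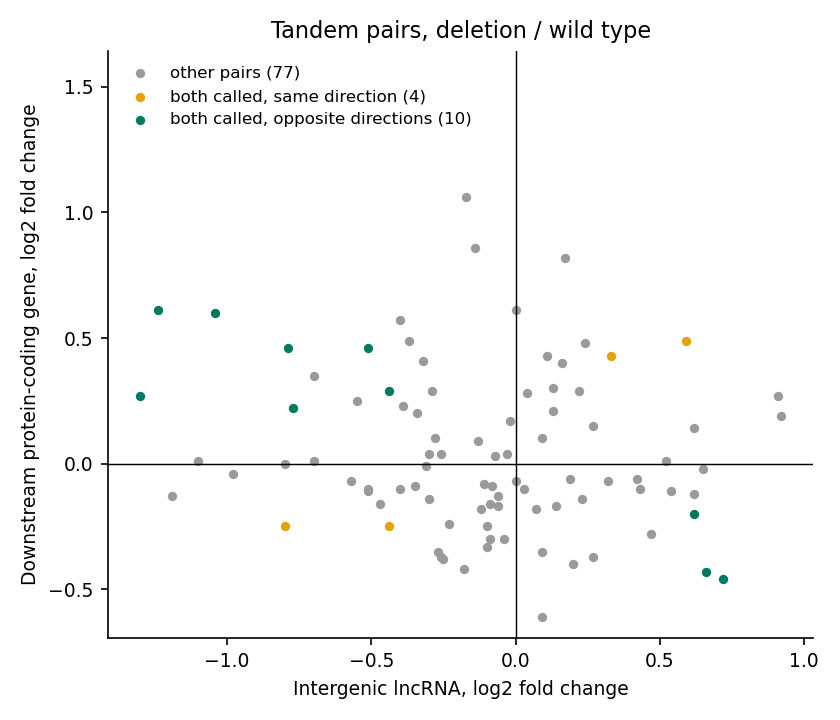
Log2 fold change (deletion over wild type) of the downstream protein-coding gene (vertical axis) against that of the intergenic lncRNA (horizontal axis) for the 91 tandem pairs with both tested. Green points are the 10 pairs called in opposite directions, orange points the 4 called in the same direction and grey points the other 77.

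Other arrangements were counted in the same way. Among 133 tested pairs of a lncRNA with a protein-coding gene that it overlaps on the opposite strand, 18 were called in opposite directions and 11 in the same one, with a Spearman's rho of -0.00. Among 133 divergent pairs, 6 were called in opposite directions and 11 in the same one, with a rho of 0.09. The same shares of protein-coding genes that rose and fell stand behind these counts, and nothing is read from them. Both sets share libraries across points, and a lncRNA may occur in more than 1 pair.

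Genes of the machinery that makes, processes and removes lncRNAs were examined beside them. Of 27 tested genes listed for the nuclear exosome, RNA elimination and related RNA processing, 16 rose and 2 fell, with a median log2 fold change of 0.28, and ars2 was not found by that name. This list also holds the exoribonuclease gene dhp1, the pyrophosphohydrolase gene din1, the 3′-end processing gene seb1 and the helicase gene sen1. Their log2 fold changes were -0.09, -0.01, 0.04 and -0.12, and none was called. The rises included rrp6, the nuclear exosome nuclease, from 88.7 ± 14.6 to 136 ± 5.83 CPM (0.62 on the log2 scale, SE 0.10, adjusted p = 0.0012), and mtl1, a helicase of RNA elimination, from 66.2 ± 4.78 to 91.4 ± 5.19 CPM (log2 fold change 0.47). The gene mmi1, whose product marks meiotic transcripts for removal, fell by 0.18 (adjusted p = 0.021). Of 20 RNA interference and heterochromatin genes, 16 rose and 1 fell, with a median of 0.33. They included swi6, the heterochromatin protein gene, with a log2 fold change of 0.52, while ago1 (Argonaute) fell by 0.21 (adjusted p = 0.0095). Under cyclic loess scaling the numbers that rose were 10 and 7, in place of 16 and 16.

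Of 17 cleavage, polyadenylation and termination genes, 8 rose and 2 fell, with a median of 0.05, and under cyclic loess scaling 5 rose and 4 fell. The rises included ssu72, a phosphatase of the polymerase tail, from 11.7 ± 0.985 to 22.3 ± 2.04 CPM (0.93 on the log2 scale, SE 0.11, adjusted p = 0.00023), rhn1, a termination factor, with a log2 fold change of 0.49, and msi2 with 0.65. The falls were dis2, a protein phosphatase gene, from 771 ± 2.13 to 590 ± 36.4 CPM (-0.38 on the log2 scale, SE 0.05, adjusted p = 0.00042), and mpe1 with -0.32. The share of protein-coding genes that rose, given above, is the background for these 3 lists.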

How the data were processed

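The deposited table of raw counts per feature holds whole reads for 6 libraries, and a second deposited table holds the authors' comparison, with its log2 fold change, p-value, Wald statistic (a score) and mean normalized signal per feature. Per the submitters' processing notes, HISAT2 2.1.0, SAMtools, HTSeq 0.10.0, DESeq and DESeq2 were used with build ASM294v2; roles, filters and strand setting are not stated there. The second table was used for product descriptions and for the values credited to it. In it, 411 of the 429 lncRNAs had an adjusted p, 24 were higher and 70 lower at 0.05, and 90 were called there and here with the same sign and 0 with opposite signs.

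Counts were analysed as deposited, in R 4.3.3 with edgeR 4.0.16: features passing filterByExpr with a minimum count of 10, TMM scaling, glmQLFit and glmQLFTest on strain alone, Benjamini-Hochberg adjustment over all 6045 features tested, and a threshold of 0.05. One identifier listed on more than 1 of the 6987 lines was summed. CPM values use TMM-scaled totals, fitted log2 fold changes use edgeR's default prior, and each SE is approximate, the size of the log2 change over the root of the F statistic. With 3 libraries a strain, labelled as biological replicates only for the deletion, p-values measure the spread between these libraries. RefSeq ASM294v3 is not the build of the files, so it served only for names, neighbours, overlap, length and GC content, with 6837 features matched (97.9%), and no coordinates or sequences are given. Alternatives were DESeq2 1.42.0, limma-voom 3.58.1, other scalings and filters, a stricter threshold, a replicate block and leaving out each library. The model was tested on simulated counts.

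Named with values were the 10 largest rises and 15 largest falls among called lncRNAs with a mean of at least 50 counts and separated groups, the 8 with the highest mean CPM, those with gene names, and up to 12 tandem pairs with both called. SPNCRNA.783, SPNCRNA.784, SPNCRNA.993 and SPNCRNA.1064 and the genes beside the lncRNAs were chosen after seeing their values. The lncRNAs and the gene lists were chosen with earlier results of these data known.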

Additional observations from a re-analysis of the deposited data

How the results depend on the processing

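Of the 29 rises and 73 falls, 23 and 54 were also called in the same direction under all 6 other scalings, and 13 and 41 in all of 16 other fits, the filter at 10 CPM aside. Requiring at least 10 CPM in 3 libraries, which removes most lncRNAs, left 7 higher and 22 lower, 1 and 3 of them at least 2-fold, and 1 opposite tandem pair. An adjusted p below 0.01 left 12 higher, 42 lower, 6 opposite tandem pairs and 0 falls among decay genes. Cyclic loess scaling gave 45 higher, 11 of them at least 2-fold, 15 at least 2-fold lower, a median of -0.05, 10 decay genes higher, 7 RNA interference genes higher and 2 lower, and 5 termination genes higher and 4 lower. Total counts gave a median of -0.04 and 0 falls among decay and RNA interference genes, and DESeq2, which also tests scarcer lncRNAs, a median of -0.16, or -0.12 over those tested with edgeR. Without mitochondrial and rRNA genes, 1 decay gene fell. The lncRNAs that overlap no gene gave 2 higher, 7 lower, 0 and 2 of them at least 2-fold, and 0 opposite pairs; those that overlap no protein-coding gene, an alternative chosen after seeing the data, gave 17, 36, 1 and 11. Neighbours taken only from genes in the count table, also chosen after seeing the data, gave 18 opposite and 8 like pairs. That choice held 146 pairs, 39 of them with a called lncRNA, and Spearman's rho was -0.15. The smaller sets hold fewer lncRNAs by construction; otherwise the cause was not tested.

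Leaving out 1 library at a time gave 17 to 35 higher, 3 to 7 of them at least 2-fold, 50 to 70 lower, a median of -0.14 to -0.06, 0 to 3 decay genes lower and 0 to 1 RNA interference genes lower. Values that were not called changed sign for SPNCRNA.1443 without deletion replicate 3 (0.01, with a range of -0.10 to 0.01 over the libraries left out) and under cyclic loess for SPNCRNA.1097 (-0.04), SPNCRNA.862 (-0.00) and prl59 (-0.03). Of the 38 called lncRNAs named by the rule, 31 kept their call in every setting that tested them at the 0.05 threshold; the filter at 10 CPM removed most of them. Same-numbered libraries did not deviate together (r = -0.129, -0.167 and 0.257, and of the 3 numbers only replicate 3 correlated best with its own), so the replicate number does not pair them; a replicate block gave 38 higher and 74 lower. How depth affects the calls of scarce lncRNAs was not tested.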

Other observations

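Lengths and positions of the lncRNAs gave further counts. Of those shorter than 700 bases in RefSeq, 4 of 76 tested rose and 11 fell; of those from 700 to under 1500 bases, 16 of 189 rose and 41 fell; of those of 1500 bases or more, 9 of 79 rose and 21 fell. The longer lncRNAs also had more counts. On chromosome I, 14 of 145 rose and 36 fell, on chromosome II 8 of 124 rose and 25 fell, and on chromosome III 7 of 75 rose and 12 fell. Among 83 pairs of tested lncRNAs that lie within 2000 bases of each other, 8 were called in the same direction and 5 in opposite directions, with a Spearman's rho of 0.21 between their log2 fold changes; overlapping pairs may share reads.

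The lowest fold changes were those of scarce lncRNAs. SPNCRNA.757 had 21, 20 and 26 counts in the wild type and 1, 3 and 2 in the deletion, a fitted log2 fold change of -3.56 (adjusted p = 0.00025). SPNCRNA.1095 had 19, 20 and 12 counts against 1, 3 and 2, but every 50-base stretch of it recurs elsewhere in the RefSeq genome, so the value is uncertain. SPNCRNA.1255 had 19, 35 and 10 counts against 1, 5 and 7. SPNCRNA.1452 had 15, 25 and 26 counts against 55, 54 and 77, a rise of 1.33 (adjusted p = 0.0029). These 4 were named after their values were seen.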
